A study of Mus musculus with 18 samples.

Results

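The lipogenic probes of the Steroltalk array, a focused array of genes of sterol and energy metabolism, were described over all mice of the series. They are Fasn, Scd1, Mlxipl (spotted under its older name Wbscr14) and Acas2. They were picked by the name given in the array files and are 4 of 289 gene probes. The name Acas2 has been used for both Acss1 and Acss2, so that probe keeps the name as written.

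Liver RNA came from 18 female C57BL/6 mice, 16 weeks old, each fed 1% cholesterol for 1 week and killed 24 h after a single oral dose. The dose was rosuvastatin at 20 mg/kg (n = 6), atorvastatin at 40 mg/kg (n = 6) or tap water as vehicle (n = 6), so every group, vehicle included, had eaten the cholesterol diet and no group on plain chow was analysed here. Statins inhibit HMG-CoA reductase, the enzyme that commits carbon to sterols. Each array held RNA of 1 mouse in Cy3 against a common reference in Cy5, which the labels describe as a pool of the experiment's samples, and the value given throughout is a log2 ratio of one liver over that reference. Averaged over the 18 mice, the linear ratio was 1.25 for Fasn, 1.27 for Scd1, 0.973 for Mlxipl and 1.39 for Acas2, but 0.235 for the acute-phase gene Saa1, so a value of 0 is not the mean level of these livers for every gene.

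De novo lipogenesis turns surplus carbohydrate into fat in the liver. Acetyl-CoA synthetases activate acetate, fatty acid synthase (Fasn) builds palmitate from acetyl-CoA and malonyl-CoA, and stearoyl-CoA desaturase (Scd1) places the double bond that yields oleate and palmitoleate. Mlxipl encodes ChREBP, the glucose-sensing transcription factor that switches lipogenic and glycolytic genes on after a carbohydrate meal, while SREBP-1c, from Srebf1, does so under insulin, and the related SREBP-2 drives the cholesterol enzymes.

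The start regions of Fasn and Mlxipl are shown because these genes stand at the ends of the pattern described below, and that of Sc5d, a cholesterol enzyme gene, because its probe, together with that of Fdps, had the highest Pearson r with Fasn over the 18 mice. The RefSeq table of mouse build GRCm38.p6 places the 250 bases before the start of Fasn at chr11:120824548-120824797 (minus strand) and those of Sc5d at chr9:42264301-42264550 (minus strand). Mlxipl has 2 entries on the plus strand whose starts lie 17001 bases apart, at chr5:135089640-135089889 and at chr5:135106641-135106890. Capitals mark matches, on either strand, to CCAAT (the NF-Y box), TCACNCCAC (a sterol response element), CACGTG (the E-box) and GGGCGG (the GC box).
Fasn: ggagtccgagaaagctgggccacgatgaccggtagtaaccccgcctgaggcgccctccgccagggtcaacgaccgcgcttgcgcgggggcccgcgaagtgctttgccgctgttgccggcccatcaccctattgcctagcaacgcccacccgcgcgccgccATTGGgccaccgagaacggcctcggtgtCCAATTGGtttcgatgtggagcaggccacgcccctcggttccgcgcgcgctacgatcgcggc
Sc5d: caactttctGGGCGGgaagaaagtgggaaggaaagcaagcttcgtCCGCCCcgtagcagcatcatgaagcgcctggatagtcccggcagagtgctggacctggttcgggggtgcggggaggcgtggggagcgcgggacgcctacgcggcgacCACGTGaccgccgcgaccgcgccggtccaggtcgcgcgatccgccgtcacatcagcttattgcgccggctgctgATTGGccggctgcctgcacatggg
Mlxipl, first start: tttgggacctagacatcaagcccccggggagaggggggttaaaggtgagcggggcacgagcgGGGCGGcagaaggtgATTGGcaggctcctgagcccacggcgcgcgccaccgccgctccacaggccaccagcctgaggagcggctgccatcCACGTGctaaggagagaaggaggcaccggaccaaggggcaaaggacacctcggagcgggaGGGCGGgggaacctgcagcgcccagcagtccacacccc
Mlxipl, second start: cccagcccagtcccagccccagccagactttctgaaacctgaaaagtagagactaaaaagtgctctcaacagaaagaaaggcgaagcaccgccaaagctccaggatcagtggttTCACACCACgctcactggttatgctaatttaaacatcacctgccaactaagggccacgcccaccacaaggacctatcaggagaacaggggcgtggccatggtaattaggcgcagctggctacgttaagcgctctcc
Fasn held 3 matches to CCAAT, the last 2 of which overlap, within bases 90 to 55 before its start. Sc5d held 1 match to CCAAT, 1 to CACGTG and 2 to GGGCGG. The first Mlxipl start held an E-box at bases 98 to 93, a CCAAT match and 2 matches to GGGCGG. The second start held only a match to the sterol response element, at bases 136 to 128. Of 32851 promoter entries searched over the same length, 33.8% held CCAAT, 1.05% TCACNCCAC, 6.02% CACGTG and 32.7% GGGCGG. Such matches describe the letters of these windows alone, and no sequence is shown for Scd1 or Acas2.

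All 4 probes were bright enough to be read in every mouse, with 54 of 54 spots above background for each. Their log2 ratios nevertheless differed widely in how much they varied. Acas2 spanned 3.21 log2 units over the 18 mice, a 9.24-fold range, and Fasn spanned 3.03 units or 8.15-fold. Scd1 spanned 1.71 units and Mlxipl 0.70. Within groups the SD was 0.96 for Fasn, 0.89 for Acas2 and 0.50 for Scd1, which ranked 4, 6 and 17 among the 188 probes tested, whereas Mlxipl, at 0.19, ranked 101 and lay beside the median SD of 0.20. The replicate spots of one array differed far less, with a median SD between 0.031 and 0.054, so the spread lay between arrays and not between spots.

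**Figure D1:**
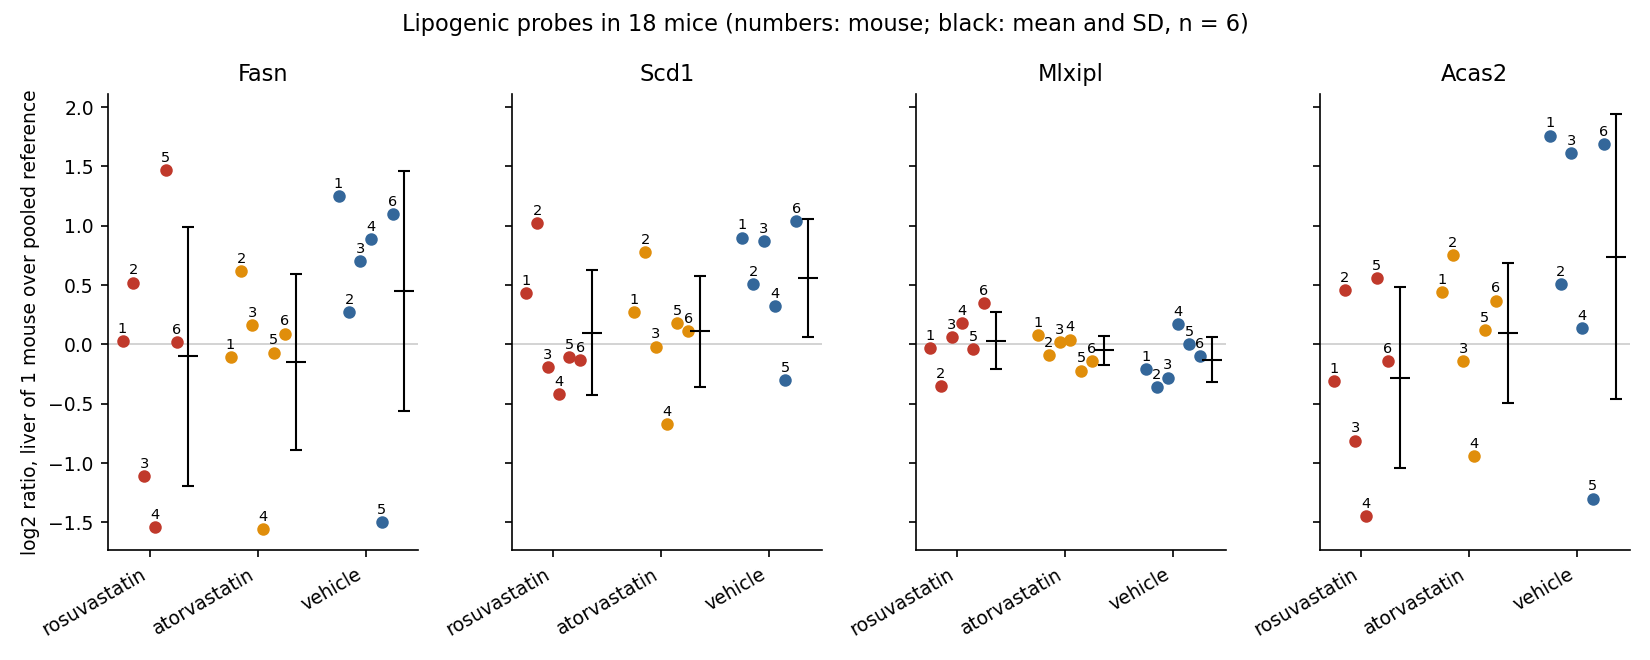
Log2 ratio of each mouse over the pooled reference (vertical axis) for the 4 probes, by group. Points carry the number of the mouse, and the black mark and bar give the mean and SD of 6 mice. Mlxipl stays within 0.70 log2 units, while Fasn and Acas2 span more than 3.

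Acas2, the acetate-activating enzyme, showed the widest difference between groups. Its log2 ratio had a lowest, median and highest value of -1.45, -0.22 and 0.56 in rosuvastatin mice, of -0.94, 0.25 and 0.75 in atorvastatin mice, and of -1.30, 1.06 and 1.76 in vehicle mice. The 3 vehicle mice at the top (1.76, 1.61 and 1.69 in mice 1, 3 and 6) lay above every statin mouse, yet vehicle 5 lay below all but 1 of them, so the groups overlapped. All 6 rosuvastatin mice and 5 of 6 atorvastatin mice were below the vehicle mean. The means were -0.28 ± 0.76 with rosuvastatin, 0.10 ± 0.59 with atorvastatin and 0.74 ± 1.20 with vehicle (SD, n = 6 each).

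The difference of Acas2 between rosuvastatin and vehicle was -1.02 (SE 0.48), or 2.02-fold lower, with a 95% interval from -2.03 to -0.0033. Its unadjusted p in limma's test was 0.0493, its p adjusted over the 188 probes was 0.723, and the exact two-sided permutation test over mice gave p = 0.113. It did not pass the threshold of an adjusted p of 0.05. Between atorvastatin and vehicle the difference was -0.64 (SE 0.48, adjusted p = 0.687 in limma's test), and for both statins against vehicle it was -0.83 (SE 0.42, adjusted p = 0.571). Without vehicle 5 the atorvastatin difference was -1.04.

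Fasn showed the same kind of overlap with a larger spread. In rosuvastatin mice its lowest, median and highest log2 ratios were -1.54, 0.02 and 1.47, in atorvastatin mice -1.56, 0.01 and 0.62, and in vehicle mice -1.50, 0.79 and 1.25. The highest and nearly the lowest value of the series both came from rosuvastatin mice (5 and 4), and each group had at least 1 mouse below -1. Means were -0.10 ± 1.09 with rosuvastatin, -0.15 ± 0.74 with atorvastatin and 0.45 ± 1.01 with vehicle (SD, n = 6 each). The difference was -0.55 (SE 0.52, interval -1.64 to 0.54, adjusted p = 0.802 in limma's test) for rosuvastatin against vehicle and -0.59 (SE 0.52, interval -1.68 to 0.50, adjusted p = 0.769) for atorvastatin against vehicle. Single mice weighed heavily on both. For both statins against vehicle Fasn was at -0.57 (SE 0.45, adjusted p = 0.784 in limma's test), and at -0.96 without vehicle 5. Leaving out vehicle 5 gave -0.94 for rosuvastatin and -0.98 for atorvastatin, and leaving out atorvastatin 4 gave -0.31 for atorvastatin. For rosuvastatin, Fasn was at -0.26 without rosuvastatin 4, -0.35 without rosuvastatin 3 and -0.86 without rosuvastatin 5.

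Scd1, the desaturase, lay lower in most statin mice than in most vehicle mice, by less than its spread. Its lowest, median and highest log2 ratios were -0.42, -0.12 and 1.02 in rosuvastatin mice, -0.67, 0.15 and 0.78 in atorvastatin mice, and -0.30, 0.69 and 1.04 in vehicle mice. The vehicle values sat high in their range apart from mouse 5, but rosuvastatin 2 and atorvastatin 2 reached among them. Scd1 differed by -0.46 (SE 0.27, interval -1.03 to 0.11, adjusted p = 0.738 in limma's test) between rosuvastatin and vehicle, with 5 of 6 rosuvastatin mice below the vehicle mean. Between atorvastatin and vehicle it differed by -0.45 (SE 0.27, adjusted p = 0.593), again with 5 of 6 below, and by -0.29 without atorvastatin 4. For both statins together the difference was -0.45 (SE 0.23), with adjusted p = 0.571 in limma's test and an exact permutation p of 0.08 over the 18564 ways of choosing 12 of the 18 mice. The pooled reference was saturated, at the top of the scanner's range, in all 3 spots of Scd1 on 7 arrays and in some of them on 2 more. With saturated spots left out, 4 rosuvastatin, 3 atorvastatin and 4 vehicle arrays remained, and the differences from vehicle were -0.17 for rosuvastatin and -0.12 for atorvastatin. This also changed which mice were compared. Rosuvastatin 3 (-0.19) and rosuvastatin 4 (-0.42) dropped out, as did atorvastatin 1 (0.27), atorvastatin 3 (-0.02) and atorvastatin 4 (-0.67). Vehicle 1 (0.90) and vehicle 2 (0.51) dropped out too, while vehicle 5 (-0.30) stayed. The part of saturation itself was not tested.

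Mlxipl, the only regulator among the 4, ran the other way and over a narrow range. Its lowest, median and highest log2 ratios were -0.35, 0.02 and 0.35 in rosuvastatin mice, -0.22, -0.03 and 0.08 in atorvastatin mice, and -0.36, -0.15 and 0.17 in vehicle mice. All atorvastatin values fell inside the range of the vehicle mice, and the rosuvastatin mice spread beyond it only at the upper end. The difference from vehicle was 0.16 (SE 0.11, interval -0.07 to 0.38, adjusted p = 0.79 in limma's test) for rosuvastatin and 0.08 (SE 0.11, interval -0.15 to 0.30, adjusted p = 0.904) for atorvastatin. With single mice left out these values lay between 0.09 (without rosuvastatin 6) and 0.23 (without rosuvastatin 2) for rosuvastatin, and between 0.03 (without vehicle 2) and 0.13 (without vehicle 4) for atorvastatin. In the authors' table of ratios the atorvastatin value was -0.01, with the opposite sign. The arrays of that table are not centred alike, with medians over gene probes from -0.32 (vehicle 3) to 0.564 (vehicle 6). Mlxipl in vehicle 6 was 0.57 there and -0.10 in the values used here. The part of these medians in the sign was not tested.

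None of the 4 probes passed an adjusted p of 0.05 in any contrast, where 0 of 188 probes (0%) did so in each. At an unadjusted p under 0.05, 1 of the 4, Acas2, was counted for rosuvastatin against vehicle, beside 12 of 188 probes (6.38%). None of the 4 was counted for atorvastatin against vehicle or for both statins against vehicle, beside 16 of 188 probes (8.51%) in each. The 2 statins were given at different doses, and between them the differences, atorvastatin minus rosuvastatin, were -0.05 for Fasn, 0.01 for Scd1, -0.08 for Mlxipl and 0.38 for Acas2. With single mice left out, Acas2 lay between 0.15 (without rosuvastatin 4) and 0.59 (without atorvastatin 4) and Mlxipl between -0.16 (without rosuvastatin 2) and -0.02 (without rosuvastatin 6), while Fasn lay between -0.33 (without rosuvastatin 4) and 0.27 (without rosuvastatin 5). The Acas2 value had an interval from -0.63 to 1.39 and that of Fasn from -1.14 to 1.04, both of which include 0, and 10 of 188 probes (5.32%) but none of the 4 had an unadjusted p under 0.05. In whole liver, fewer cells of a type and less RNA per cell cannot be told apart.

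**Figure D2:**
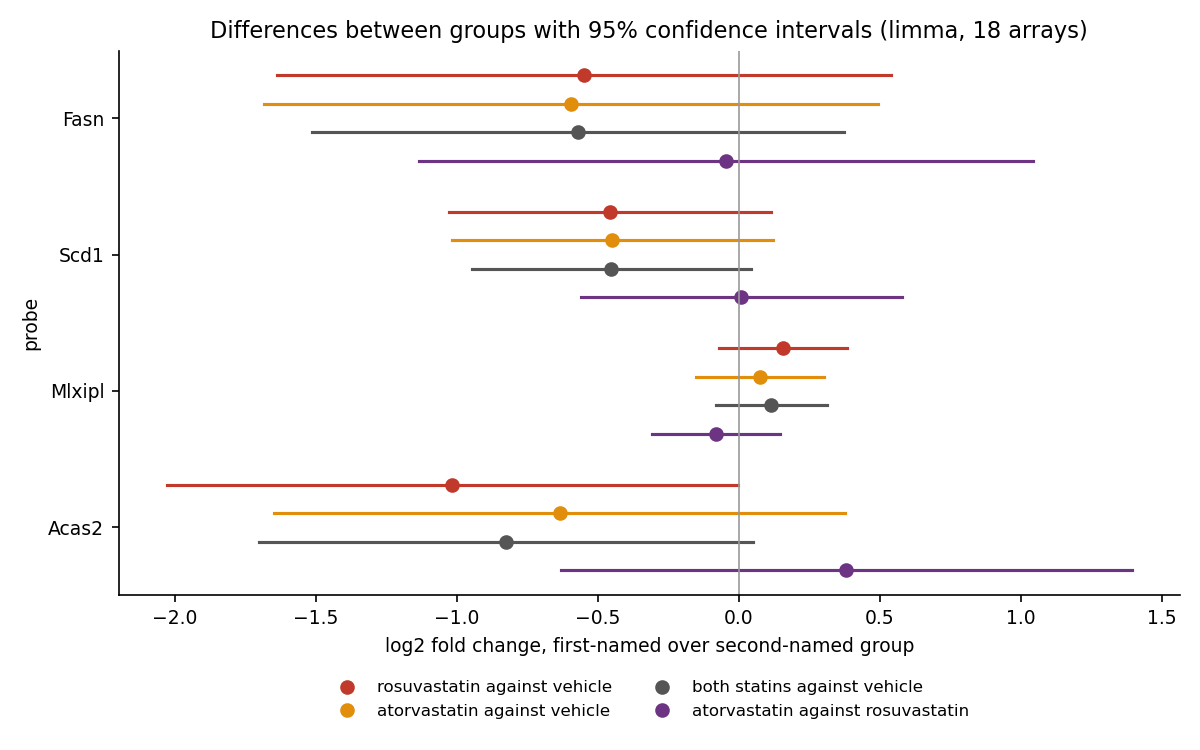
Log2 fold change (horizontal axis) of each probe in the 4 contrasts, with 95% confidence intervals from limma over 18 arrays. Only the interval of Acas2 for rosuvastatin against vehicle, from -2.03 to -0.0033, leaves out 0.

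The area of the ring in which the local background of a spot was measured differed between arrays, and 11 arrays shared one area, the smallest (4 rosuvastatin, 3 atorvastatin and 4 vehicle). Within these, the difference from vehicle was 0.32 for Fasn, -0.09 for Scd1, 0.05 for Mlxipl and -0.12 for Acas2 with rosuvastatin, and 0.02, -0.03, -0.08 and 0.15 for the same probes with atorvastatin. The direction of Fasn under both statins, and of Mlxipl and Acas2 under atorvastatin, was therefore opposite to that over all arrays. This also changed which mice were compared. Left out were rosuvastatin 3, rosuvastatin 4 and atorvastatin 4, with Fasn at -1.11, -1.54 and -1.56. Vehicle 1 and vehicle 3, with Fasn at 1.25 and 0.70 and Acas2 at 1.76 and 1.61, were left out too. So were atorvastatin 1 and atorvastatin 3, with Fasn at -0.11 and 0.16. The 11 arrays include vehicle 5, with Fasn at -1.50. Without that mouse they gave -0.24 for Fasn, -0.32 for Scd1, 0.08 for Mlxipl and -0.64 for Acas2 with rosuvastatin, and -0.54, -0.26, -0.05 and -0.37 with atorvastatin. As a block, the ring area left Fasn at -0.28 with rosuvastatin and -0.26 with atorvastatin, and Acas2 at -0.83 and -0.34. The part of the ring area in these differences was not tested.

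**Figure D3:**
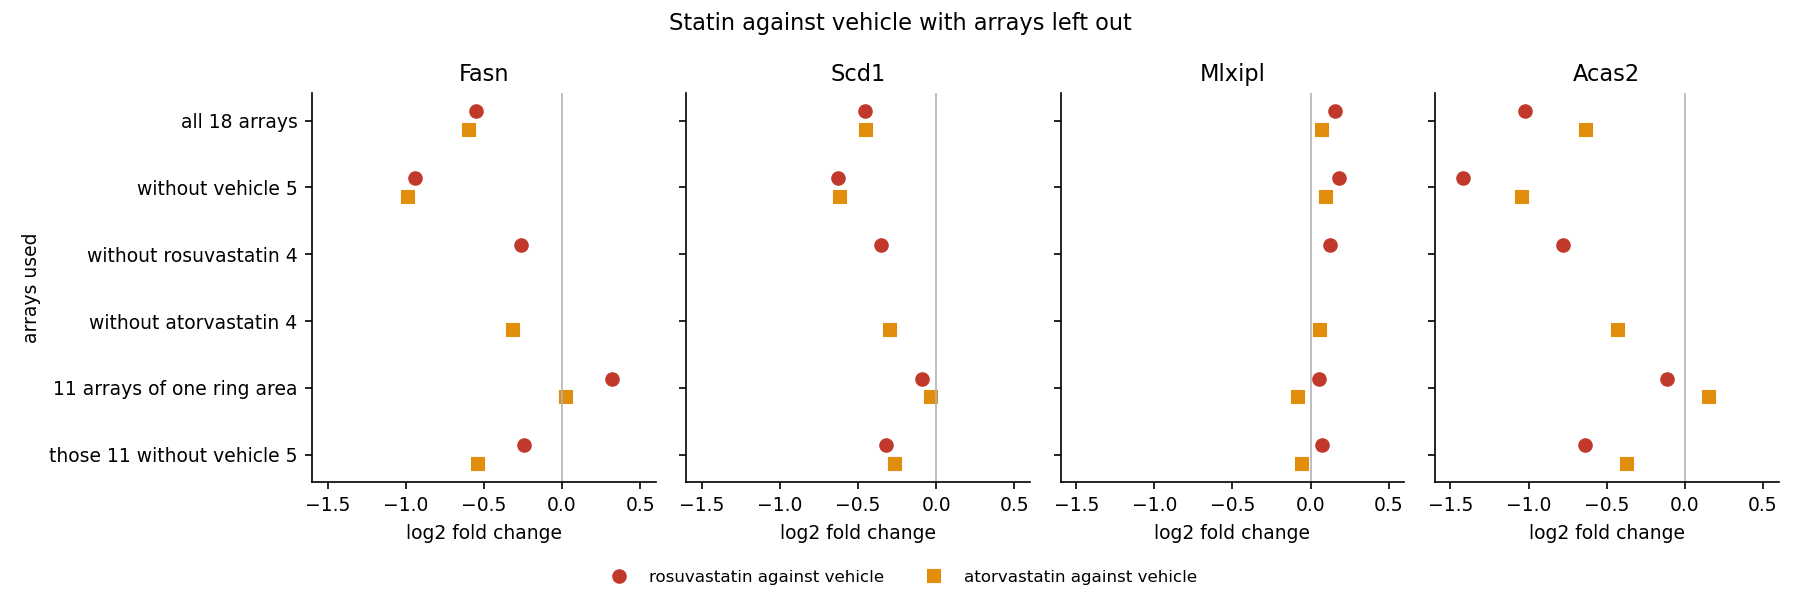
Log2 fold change of each statin against vehicle (horizontal axis) for the 4 probes when arrays are left out (rows). Fasn lies at 0.32 with rosuvastatin within the 11 arrays of one ring area and at -0.94 without vehicle 5.

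The mice low in Fasn were low in Acas2 too. Sorted by Fasn, the values left their widest gap, 0.99 log2 units, between -1.11 and -0.11, and 4 mice lay below it. These were atorvastatin 4 (-1.56), rosuvastatin 4 (-1.54), vehicle 5 (-1.50) and rosuvastatin 3 (-1.11). They were also the lowest 4 of the 18 for Acas2, at -0.94, -1.45, -1.30 and -0.81 in that order of mice, and both probes kept these 4 as the lowest in the sample channel alone. By its ratio Scd1 was lowest in them too, at -0.67, -0.42, -0.30 and -0.19, but its reference was saturated in all of them except vehicle 5. In the sample channel alone the lowest Scd1 values were 6.10 in atorvastatin 4, 6.23 in rosuvastatin 4, 6.43 in atorvastatin 3 and 6.64 in rosuvastatin 3 on the log2 scale, with vehicle 5 at 6.80, so the order of Scd1 did not hold there. Mlxipl in them was 0.04, 0.18, 0.00 and 0.06, in the upper part of its own order (13, 17, 11 and 14 of 18 from the lowest).

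**Figure D4:**
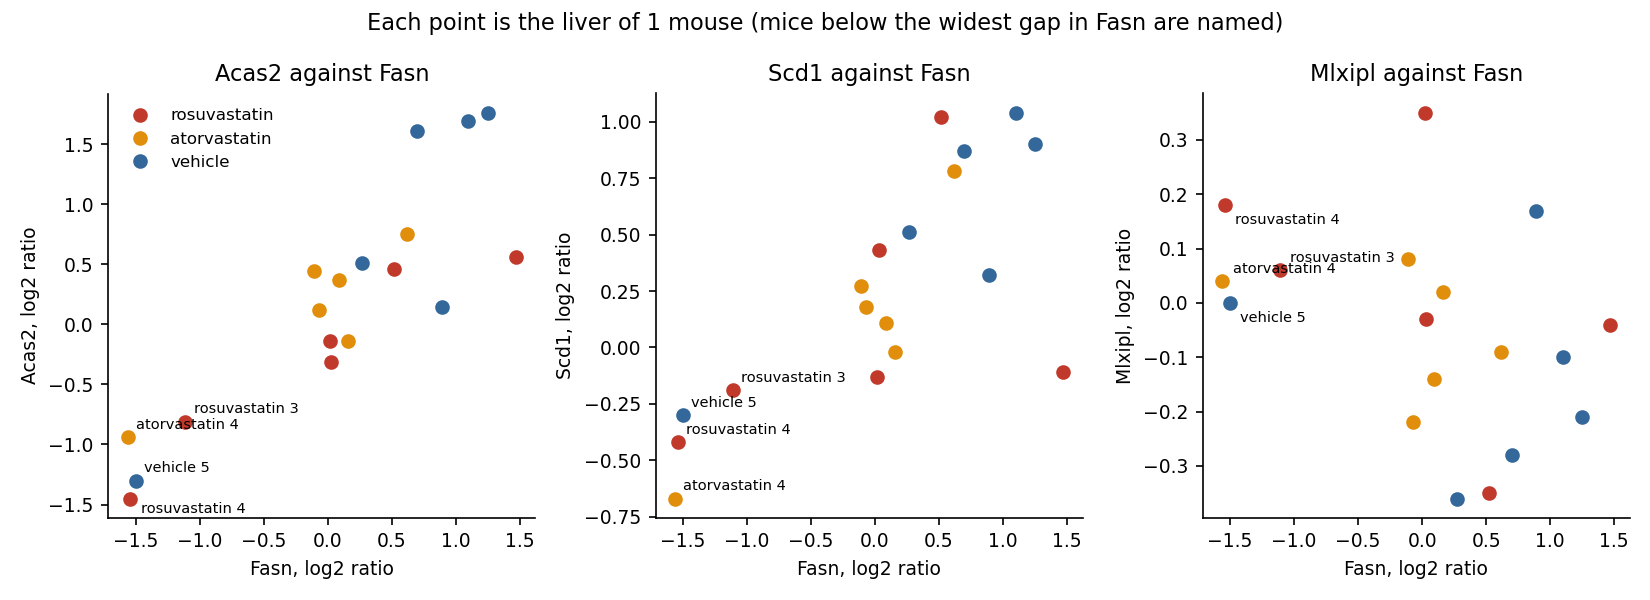
Log2 ratios of Acas2, Scd1 and Mlxipl (vertical axes) against Fasn (horizontal axes), with 1 point for each of 18 mice. The 4 named mice lie at or below -1.11 for Fasn and are the lowest for Acas2, but not for Mlxipl. For Scd1 they are the lowest by ratio, with a saturated reference in 3 of them, and not in the sample channel alone.

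Some of these mice stood apart in other measures, whose part in the lipogenic values was not tested. The arrays of atorvastatin 4 and vehicle 5 had a median correlation with the other arrays of -0.464 and 0.252, against 0.644 (rosuvastatin 3) to 0.893 for the remaining 16. These correlations run over all 188 kept probes, Saa1, Saa2 and Saa3 included. The within-group SDs of those genes were 1.996, 1.984 and 1.755, beside a median of 0.197. The correlations are thus not separate from the Saa values given below. The array of vehicle 5 also had the highest sample median (376) and the most probes above background (218). Its calibration control spots had a median log2 ratio of -0.12, the highest of the series, with the next at -0.51 in rosuvastatin 5 and rosuvastatin 6. Saa1, an acute-phase gene that rises in hepatocytes under inflammatory cytokines, was at 1.65 in atorvastatin 4 and -1.44 in vehicle 5, the highest values of the series. In rosuvastatin 3 and rosuvastatin 4, however, Saa1 was at -3.47 and -5.34. The other acute-phase genes of the list, Saa2, Saa3, Orm1 and Crp, were at 1.62, 1.88, 0.26 and 0.28 in atorvastatin 4 and at -5.16, -4.51, -1.08 and 0.19 in rosuvastatin 4. In rosuvastatin 3 they were at -3.52, -3.03, -0.63 and -0.12, and in vehicle 5 at -1.45, -1.41, -0.61 and -0.01. Of the hepatocyte markers 6 of 7 were measured, with a mean log2 ratio between 0.13 and 0.40 in rosuvastatin mice, -0.12 and 0.23 in atorvastatin mice and -0.03 and 0.27 in vehicle mice. Of 5 adipocyte markers only Adipoq was measured, within -0.11 to 0.26 over all mice, Lep was not above background on enough arrays, and of 6 macrophage and leukocyte markers none was on the array.

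Because those 4 mice form a cluster of their own in Fasn, the relation between the probes was taken over the 14 mice above the gap, as deviations from the group means, with p from 100000 permutations within groups. All arrays share the pooled reference. For Scd1 that reference was saturated in at least 1 spot on 9 of the 18 arrays, which limits every correlation with Scd1 given here and below. Acas2 went with Scd1 at Pearson r = 0.59 (permutation p = 0.0277, Spearman rho = 0.62, permutation p = 0.0229) and with Fasn at r = 0.58 (permutation p = 0.0326, rho = 0.56, permutation p = 0.0513). Adjusted over the 742 pairs of these probes with any tested probe, the p of r was 0.598 and 0.605 and that of rho 0.576 and 0.776, so neither relation passed. Without the 2 mice farthest from the median, r was 0.59 for Acas2 with Scd1 and 0.46 for Acas2 with Fasn. Within the 11 arrays of one ring area, which hold vehicle 5, r was 0.71 and 0.87 (permutation p = 0.0407 and 0.00431, adjusted p = 0.501 and 0.355). There rho was 0.51 and 0.86 (permutation p = 0.17 and 0.00491, adjusted p = 0.724 and 0.333).

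Fasn and Scd1, which act one after the other, had r = 0.14 above the gap (permutation p = 0.768, adjusted p = 0.949), with rho = 0.24 (permutation p = 0.492, adjusted p = 0.86). Rosuvastatin 5 lay off the rest, with the highest Fasn of the series (1.47) and Scd1 at -0.11. Without it and vehicle 2, the mice farthest from the median, r was 0.67, and within the 11 arrays it was 0.50. Mlxipl had r = -0.56 with Scd1 (permutation p = 0.0955), -0.37 with Acas2 (permutation p = 0.252) and -0.06 with Fasn (permutation p = 0.879), with rho of -0.42, -0.23 and 0.05, and adjusted p of 0.769 or more for each r. Over the 14 mice, and within the 11 arrays, none of the 6 pairs among the 4 probes passed after adjustment. Over all 18 mice, with the low-Fasn cluster included, 3 of 6 pairs passed by r. These were Fasn with Acas2 (adjusted permutation p = 0.00175), Scd1 with Acas2 (0.0029) and Fasn with Scd1 (0.0315). By rho 2 of 6 passed, Fasn with Acas2 (adjusted permutation p = 0.0166) and Scd1 with Acas2 (0.0111). Fasn with Scd1 did not pass by rho (adjusted permutation p = 0.0778). Leaving out the 4 low-Fasn mice narrows the range of Fasn and leaves fewer mice. The loss of these calls over the 14 mice therefore cannot decide whether they rest on those 4.

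The 3 probes most like each of the 4 were found by Pearson r over all 18 mice, as a description that includes the low-Fasn mice and their shared reference. For Fasn these were Sc5d, sterol C5-desaturase (r = 0.92, and 0.59 over the 14 mice above the gap), Fdps, farnesyl diphosphate synthase (0.92 and 0.64), and Acas2 (0.88 and 0.58). For Acas2 they were Fdps (0.96 and 0.92), Lss, lanosterol synthase (0.96 and 0.87), and Mvd, mevalonate diphosphate decarboxylase (0.93 and 0.74). Acas2 thus had its nearest neighbours among cholesterol enzymes, and the first pair kept r of 0.87 or more above the gap. For Scd1 they were Ucp2, a mitochondrial carrier (0.95 and 0.90), Acas2 (0.83 and 0.59) and Lss (0.79 and 0.50). Ucp2 was above background on only 10 of 18 arrays. For Mlxipl they were Pon2 (0.58 and 0.66), Nr3c1, the glucocorticoid receptor (0.53 and 0.56), and Cyp4f14, a fatty acid hydroxylase (0.51 and 0.58), and the lowest r of any probe with it over the 18 mice was -0.68.

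By list, the cholesterol enzymes lay on the positive side of Fasn and Acas2 over the 14 mice. All 16 measured enzymes had r above 0 with Fasn (median 0.39) and 15 of 16 with Acas2 (median 0.67), beside medians of 0.01 and -0.05 over all 187 other probes. With Scd1 12 of 16 were above 0 (median 0.17), and with Mlxipl 4 of 16 (median -0.10). The acute-phase genes were below 0 with Fasn in 5 of 5 (median -0.27, lowest -0.85 for Crp) and with Acas2 in 5 of 5 (median -0.27). With Mlxipl too 5 of 5 were below 0 (median -0.32), while Scd1 gave a median of -0.06, with 3 of 5 below 0. Pklr, the liver pyruvate kinase that ChREBP is known to control, went with Fasn at 0.82 and with Mlxipl at 0.11 over the 14 mice, values singled out after they were seen. Cpt1a, which admits fatty acids to mitochondria for oxidation, was at -0.41 with Fasn, -0.48 with Scd1, 0.45 with Mlxipl and -0.52 with Acas2, likewise singled out afterwards. These genes are not independent of each other.

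**Figure D5:**
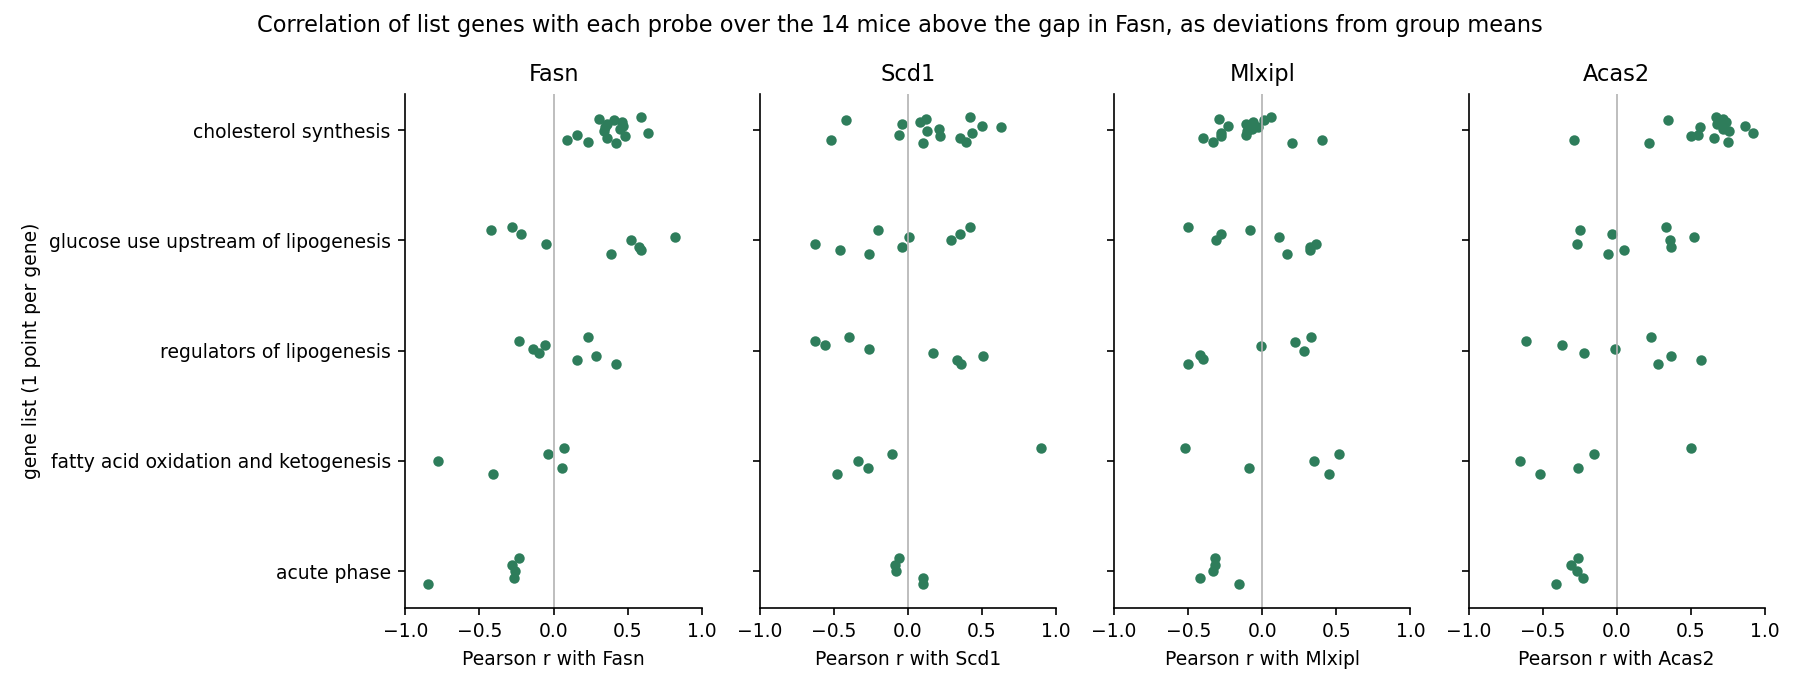
Pearson r (horizontal axis) of each gene of 5 lists (rows, 1 point per gene) with each of the 4 probes over 14 mice, as deviations from group means. The 16 cholesterol enzymes all lie above 0 for Fasn and centre on 0.67 for Acas2. For Scd1 12 of 16 lie above 0 (median 0.17), and for Mlxipl 4 of 16 (median -0.10).

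The rest of the lipogenic pathway was thinly covered. Of 20 genes listed for fatty acid and triglyceride synthesis, Fasn and Scd1 alone were on the array under their own names. Of 19 regulators, 13 were on the array and 8 measured, and 0 of 8 passed the test in either direction in any contrast. Srebf1, the source of SREBP-1c, was above background on 0 arrays, as was Irs2, while Nr1h2 was so on 3 arrays and Mbtps2 and Pparg on 1 each, so no level is given for these. Insig1, whose protein holds SREBPs back in the ER when sterols are plentiful, was at -1.14 and -1.19 in rosuvastatin 3 and rosuvastatin 4, -0.54 in atorvastatin 4 and -0.72 in vehicle 5, and lay between -0.50 and 0.68 in the other mice. It differed from vehicle by -0.34 with rosuvastatin (adjusted p = 0.802 in limma's test) and by 0.00 with atorvastatin (adjusted p = 0.999).

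Among the other regulators, Insig2 differed by -0.43 between atorvastatin and vehicle (adjusted p = 0.533 in limma's test) and by -0.07 between rosuvastatin and vehicle (adjusted p = 0.909). Irs1, an insulin receptor substrate, differed by 0.16 between rosuvastatin and vehicle (adjusted p = 0.723) and by -0.01 between atorvastatin and vehicle (adjusted p = 0.961). Rxra, the partner of the nuclear receptor LXR, was at 0.05 with rosuvastatin and 0.21 with atorvastatin against vehicle. Scap, the SREBP escort, was at -0.09 and 0.03, the SREBP protease gene Mbtps1 at 0.24 and -0.14, and Foxo1, an insulin-restrained transcription factor, at -0.01 and 0.12 in the same order of statins. Irs1 and Mbtps1 were above background on 11 arrays each. The median over the 8 was 0.02 for rosuvastatin and 0.02 for atorvastatin, beside -0.01 over all probes in each.

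In the neighbouring pathways 0 of 9 genes of glucose use, 0 of 5 of fatty acid oxidation, 0 of 16 of cholesterol synthesis and 0 of 5 LXR targets passed in any contrast. The smallest p among the glucose genes belonged to Pklr for rosuvastatin against vehicle (-0.29, adjusted p = 0.79 in limma's test), to Pdhb, a subunit of pyruvate dehydrogenase, for atorvastatin (-0.36, adjusted p = 0.424) and for both statins against vehicle (-0.27, adjusted p = 0.51), and to Ppp1r3c, a glycogen-targeting subunit, for atorvastatin against rosuvastatin (-0.51, adjusted p = 0.653). Among the oxidation genes it belonged to Ucp2 for rosuvastatin (-0.34, adjusted p = 0.723) and to Ppara, the fatty acid receptor of fasting, for atorvastatin (0.37, adjusted p = 0.424) and both statins (0.30, adjusted p = 0.51). The LXR target with the smallest p was Abca1 for rosuvastatin (-0.11, adjusted p = 0.825) and Abcg5, a sterol exporter, for atorvastatin (-0.53, adjusted p = 0.593), both statins (-0.38, adjusted p = 0.737) and atorvastatin against rosuvastatin (-0.31, adjusted p = 0.699). In the cholesterol list it was Sc5d for both statins (-0.33, adjusted p = 0.571) and Msmo1 between the statins (0.75, adjusted p = 0.653). The median of that list was -0.40 for rosuvastatin and -0.10 for atorvastatin against vehicle, with 15 and 13 of 16 enzymes below 0. The median over all probes was -0.01 in each. These enzymes are not independent of each other, so the counts are not separate results.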

How the data were processed

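Liver RNA of 18 mice was measured on 2-colour cDNA arrays. The deposited files hold the median intensity of each spot and of its local background in both channels, on a linear scale with no background removed, and a series table of log2 ratios made by the authors served as an alternative only (Scd1 has a value on 10 arrays there). The image software is not given in the sources used here, nor are the steps behind that table. In R 4.3.3 with limma 3.58.1, background was corrected by normexp (offset 50), ratios were normalised by loess within each array with control spots at weight 0, and the spots of a probe were averaged. Probes above local background plus 2 SD on at least 6 arrays were kept, 188 of 289. One fit (lmFit, eBayes) over 18 arrays gave 4 contrasts, adjusted by Benjamini-Hochberg over the 188 probes. Correlations were computed in Python 3.11.15 with numpy 2.4.6. The steps were tested on simulated data. Array names were matched to RefSeq symbols of GRCm38.p6, and 273 of 289 matched.

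The probes and gene lists were chosen with earlier results of these data known. Named were the 4 probes, the measured genes of the fatty acid and regulator lists, the smallest-p gene of each other list per contrast and the 3 probes most like each of the 4. Some genes that this rule names are not reported here. Labels do not say whether mice with one number were treated together, and the number of arrays limits the precision.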

Additional observations from a re-analysis of the deposited data

Results flagged for a closer look

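Fasn in atorvastatin 4 (-1.56) lay far below the nearest atorvastatin mouse (-0.11), with a gap of 0.664 of the whole range of the group against a limit of 0.625 for 6 mice. Fasn in vehicle 5 (-1.50) likewise lay below the nearest vehicle mouse (0.27), with a gap of 0.643 of the range. Chance alone sets off this limit in about 1 of 20 groups, and 12 groups (4 probes in 3 groups) were examined. For Acas2 the same mice had gaps of 0.473 and 0.470, and for Scd1 gaps of 0.447 and 0.461, under the limit. In rosuvastatin mice, where mice 3 and 4 were both low in Fasn, the largest gap at an end was 0.315.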

How the results depend on the processing

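No alternative brought Fasn, Scd1, Mlxipl or Acas2 past an adjusted p of 0.05, and the lowest adjusted p that any of them gave was 0.0637 (Acas2, rosuvastatin against vehicle, at -1.42 without vehicle 5 and atorvastatin 4). Within the 11 arrays of one ring area the sign turned for Fasn (0.322 for rosuvastatin, 0.0246 for atorvastatin and 0.173 for both statins against vehicle), for Acas2 (0.152 for atorvastatin and 0.0175 for both) and for Mlxipl (-0.0784 for atorvastatin and -0.0137 for both). Without vehicle 5 in those arrays, a setting added after seeing the data, Mlxipl stayed turned for atorvastatin at -0.0539. The authors' table, whose arrays are not centred alike, turned the same value to -0.0123. Between atorvastatin and rosuvastatin, Fasn was at 0.113 with array weights, 0.0198 with the ring area as a block and 0.237 without vehicle 5 and atorvastatin 4, and Scd1 was at -0.0115 with the median of spots, -0.0171 with array weights and -0.181 in the sample channel alone, which was also added afterwards. The causes were not tested.

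With single mice left out, Fasn lay between -0.333 and 0.269 and Scd1 between -0.126 and 0.192 for atorvastatin against rosuvastatin, and no other difference changed sign. Mice with the same number in different groups had pair correlations from -0.603 to 0.613, with 10 of 18 over 0.1. Mice with different numbers were not compared in this way, so these values cannot decide whether the numbers pair them. With the replicate number as a block, 2 probes passed an adjusted p of 0.05 for atorvastatin against vehicle, where 0 passed without it, and neither was one of the 4. Fasn, Mlxipl and Acas2 were above background in every spot. Fasn was dim in its 4 low mice, however, with a sample intensity from 223 (atorvastatin 4) to 307 (vehicle 5). The local background there was 87 and 76. Saturation of the reference limits Scd1. Permutations of 6 against 6 mice allow 924 assignments.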
